A study of Homo sapiens with 4 samples.

Results

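The 5' domain of human 18S rRNA was taken as nt 1 to 670 of the mature molecule, which is position 3655 to 4324 of the 45S precursor reference. These limits come from position alone, and no read depth entered the choice. They cover 670 of the 15984 positions listed for all rRNAs and 670 of the 1869 nt of 18S. The first nucleotide was found by the terminal letters of 18S in the reference, and the conserved letters GCCGCGGTA of the helix 18 loop lay at nt 620 to 628, so the stretch holds both landmarks its name implies. These letters occurred at 2 places in the listed sequences, here and in mitochondrial 16S, and their reverse complement at 0. They lay whole inside 1 of 318 windows of about 50 nt (0.314%).

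The samples were 2 nuclear and 2 cytosolic fractions of HEK293T, a human embryonic kidney line that expresses SV40 large T antigen. All 4 libraries carried the same stable Flag-SIRT7 overexpression construct and came from passages 10 to 15. SIRT7 was captured with anti-Flag gel from each fraction, and RNA recovered with it was sequenced, so the tagged, overexpressed protein stands for the endogenous one. Untagged cells, input RNA and mock captures were not analysed here, and depth therefore describes recovered RNA and not enrichment. The labels leave unsaid whether the 2 libraries of a fraction are separate cultures. The p-values thus rest on a spread that may be technical. Only rRNA was listed, so the identity of the cells was not checked against other genes.

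Human 18S rRNA is the RNA of the small ribosomal subunit. It is cut out of a long precursor that RNA polymerase I makes in the nucleolus, where SIRT7, an NAD-dependent deacylase, is concentrated. The 5' domain is the first part of 18S to be transcribed and forms most of the body of the subunit. It carries expansion segment ES3S, a variable G+C-rich insert that lies low on the subunit in eukaryotes, and it ends with helix 18, whose loop (the 530 loop of bacteria) is part of the decoding centre.

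Mean depth over all listed positions was 211717 and 189023 reads per position in the nuclear libraries, against 207648 and 197618 in the cytosolic libraries. Relative depth below is the depth at a position, or its mean over a window, divided by that library mean. It is a share of the rRNA reads and not an amount of RNA. A read counts at every base it covers, so neighbouring positions share reads and the number of reads behind a value is unknown. A more abundant other rRNA lowers every share. Spacers of the precursor did not all move one way in the nucleus over the cytosol. The fold was 2.16 for ITS1, 3.18 for ITS2 and 0.378 for the 3' external transcribed spacer (each past the threshold in limma). For the 5' external transcribed spacer it was 1.16 (adjusted p = 0.193 in limma). The 3' spacer was near the floor, with a relative depth of 2.5e-05 and 1.7e-05 in the nucleus against 5.6e-05 and 5.5e-05 in the cytosol. The region test had no filter on depth, so the fold of this spacer carries large counting error. Mitochondrial 12S rRNA was 59.4-fold higher in the libraries labelled nucleus, where it held 1.31% and 1.19% of the depth. ITS2, the deepest spacer, held 0.0111% and 0.0141% there. Most depth lay in 28S, with 63.9% and 63.4% in the nucleus against 73.8% and 71.6% in the cytosol. The fold of 28S was 0.876 (adjusted p = 0.180 in limma). The part of these regions in the results below was not tested.

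The sequences on which the results turn are shown as DNA letters of the precursor reference in the deposited file, 5' to 3', numbered from the first nucleotide of 18S. In nt 1 to 50 the capitals mark the 10 nt that begin where depth rose most. In nt 201 to 250 they mark nt 248 to 250, where nuclear depth first lay below cytosolic depth. In nt 251 to 300 they mark the longest run of G and C in the domain. The next stretch, nt 301 to 350, completes the part with lower nuclear depth. In nt 601 to 670 they mark the helix 18 loop letters.
nt 1 to 50: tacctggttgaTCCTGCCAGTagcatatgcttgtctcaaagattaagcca
nt 201 to 250: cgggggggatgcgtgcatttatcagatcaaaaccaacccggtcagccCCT
nt 251 to 300: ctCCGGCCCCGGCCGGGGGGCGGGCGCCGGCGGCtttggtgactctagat
nt 301 to 350: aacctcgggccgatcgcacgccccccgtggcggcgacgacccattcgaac
nt 601 to 670: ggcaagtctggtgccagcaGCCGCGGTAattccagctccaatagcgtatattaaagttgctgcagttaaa

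The start of 18S was nearly bare of reads in all 4 libraries, and depth climbed by orders of magnitude within the first nucleotides. At nt 1 depth was 26 and 22 reads in the nuclear libraries, against 21 and 15 in the cytosolic libraries. At nt 11 it was 689 and 469 in the nucleus against 311 and 405 in the cytosol. At nt 13 it was 12901 and 9205 in the nucleus against 6730 and 7327 in the cytosol. The steepest rise common to all libraries lay at nt 12, at the first capital of the first sequence above. There the mean log2 depth of the following 10 nt exceeded that of the preceding 10 nt by 6.32 and 6.48 in the nucleus, against 6.50 and 6.58 in the cytosol. These steps were of like size in both fractions.

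Before the mature end, in the last 10 nt of the 5' external transcribed spacer, depth was 17.4 and 9.7 reads per position in the nucleus against 13.2 and 8.5 in the cytosol. In the first 10 nt of 18S it was 213.9 and 136.2 in the nucleus against 97.5 and 101.7 in the cytosol. The ratio of the 18S side over the spacer side was 12.3 and 14.0 in the nuclear libraries, against 7.39 and 11.96 in the cytosolic libraries. On the log2 scale it was 3.72 ± 0.14 in the nucleus and 3.23 ± 0.49 in the cytosol (SD, n = 2 each), a difference of 0.48. The nuclear values lay just above the cytosolic ones, and the difference was about the size of the cytosolic spread (two-sided exact permutation p = 0.333, the smallest that 2 libraries against 2 can give). Leaving out cytosolic replicate 1 or 2 gave 0.13 or 0.83. Depths under 20 reads on the spacer side carry large counting error.

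**Figure D1:**
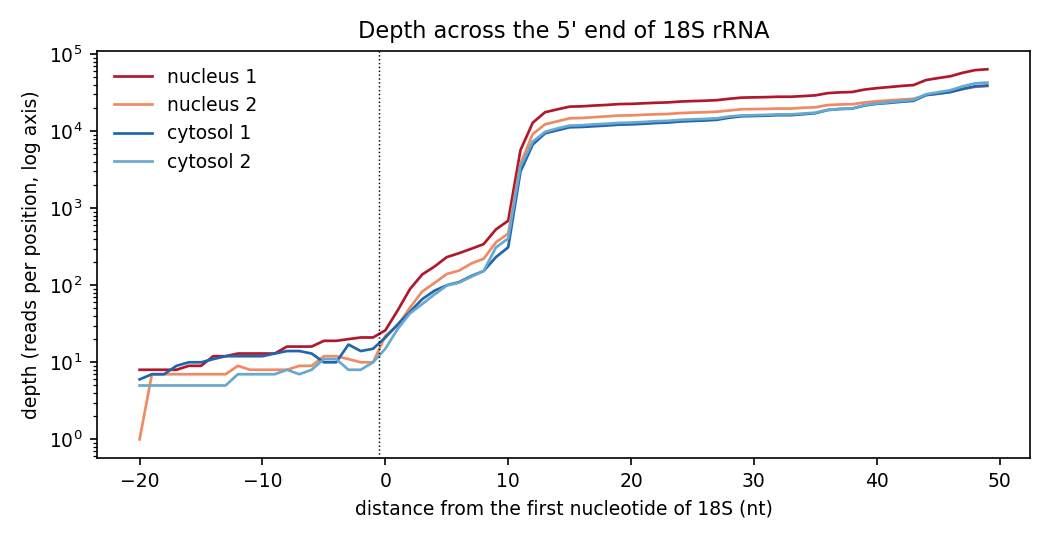
Depth in reads per position (log axis) against distance from the first nucleotide of 18S, set at 0, for the 2 nuclear and 2 cytosolic libraries; the dotted line marks the border with the 5' external transcribed spacer. All 4 curves rise most steeply at nt 12, 11 nt after the border, and nucleus 1 is the highest at each position of 18S shown.

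The domain was divided into 13 windows, 12 of 50 nt and a last one of 70 nt, all of which passed the filter on low depth. In the nuclear libraries 7 windows were higher and 2 were lower than in the cytosolic libraries, and 4 did not pass the test. The test was limma on log2(relative depth + 0.01), fitted over 264 tested windows of all rRNAs and adjusted over all of them by Benjamini-Hochberg, with a threshold of 0.05. Of all tested windows 36.7% were higher in the nucleus and 17.0% lower. The median log2 difference was 0.32 over the 13 windows and 0.01 over all tested windows. The 2 lower windows lay side by side at nt 251 to 350, within ES3S, and the 7 higher ones lay on either side of them, at nt 151 to 250 and nt 401 to 670. With the median of ratios as scaling, which moved the difference between the fractions by -0.22 on the log2 scale before the pseudocount, 4 windows were higher and 2 lower. Scaling to the rest of 18S moved it by -0.41 and left 0 higher (2 at an unadjusted limma p under 0.05) and the same count of 2 lower.

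**Figure D2:**
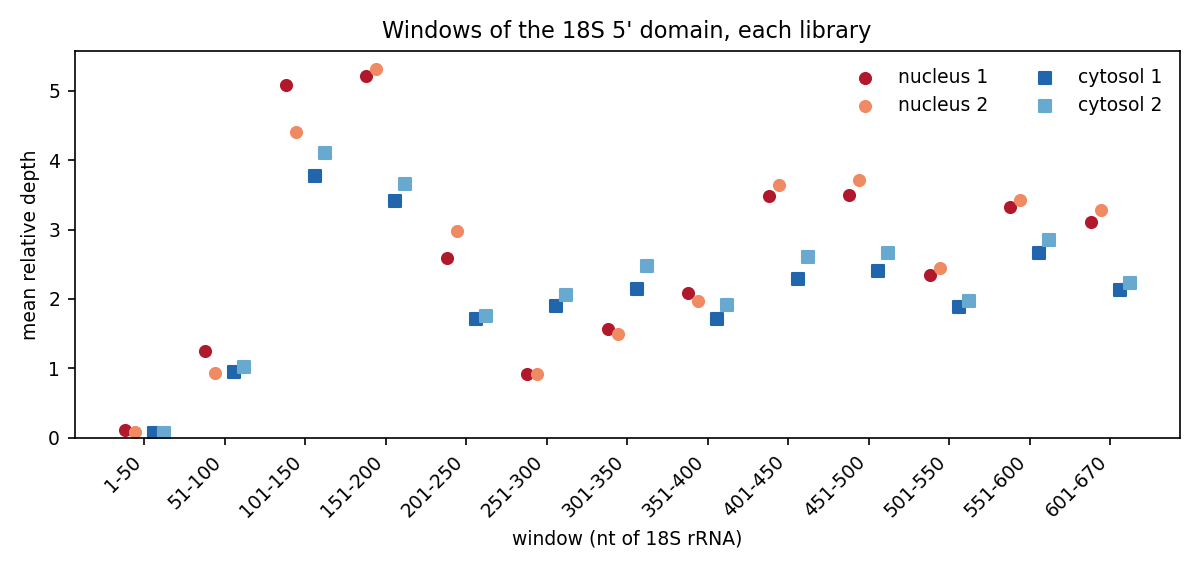
Mean relative depth (depth over the library mean) of each of the 13 windows of the domain, with 1 point per library, nuclear libraries as circles and cytosolic libraries as squares. At nt 251 to 300 and nt 301 to 350 both nuclear points lie below both cytosolic points, and they lie above them in the other windows except nt 51 to 100.

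The first window was the shallowest, and the nuclear libraries differed most from each other, relative to their mean, in the windows up to nt 100. At nt 1 to 50, the shallowest window of both fractions, relative depth was 0.113 and 0.0852 in the nucleus against 0.0676 and 0.0742 in the cytosol. The log2 difference was 0.42 (SE 0.24) with an adjusted p of 0.223 in limma. At nt 51 to 100 relative depth was 1.25 and 0.933 in the nucleus against 0.948 and 1.03 in the cytosol, with one nuclear library above both cytosolic ones and the other below them. From nt 47 to nt 96 the fractions overlapped at every position.

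Depth reached its highest values at nt 101 to 200. The window at nt 101 to 150 was the deepest of the cytosol, with 5.08 and 4.41 in the nucleus against 3.77 and 4.10 in the cytosol. The groups did not overlap, but the log2 difference of 0.27 (SE 0.10) had an adjusted p of 0.0901 in limma. The window at nt 151 to 200 was the deepest of the nucleus, with 5.20 and 5.31 in the nucleus against 3.41 and 3.66 in the cytosol. It rose by 0.57 (SE 0.05, adjusted p = 0.00307 in limma), 1.49-fold. The single deepest position was nt 165 in both nuclear libraries, at 6.82 and 6.79 times the library mean. It was nt 153 and nt 164 in the cytosolic libraries, at 4.49 and 4.81 times. A small step at nt 162 added to the difference: log2 depth changed there by 0.18 and 0.28 in the nucleus, against -0.05 and -0.03 in the cytosol.

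The mean of all 4 libraries dropped at nt 185, more steeply than elsewhere in the domain except around nt 249, which is described below. Mean relative depth over nt 175 to 184 was 6.07 and 6.22 in the nucleus against 3.81 and 4.15 in the cytosol. Over nt 185 to 194 it was 3.30 and 3.75 in the nucleus against 1.90 and 2.004 in the cytosol. The log2 step was -0.88 and -0.73 in the nucleus against -1.01 and -1.05 in the cytosol. The cytosolic libraries thus lost slightly more depth at this point, and the nuclear excess was larger after it.

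The window with the largest rise was nt 201 to 250, which had 2.60 and 2.98 in the nuclear libraries, against 1.71 and 1.76 in the cytosolic libraries. Its log2 difference was 0.68 (SE 0.09, adjusted p = 0.00692 in limma), 1.61-fold, and both nuclear libraries were above both cytosolic ones. The position with the largest excess of the nucleus lay just ahead of it, at nt 198. Depth there was 629835 and 650331 reads in the nucleus against 340488 and 337576 in the cytosol, and the log2 difference was 0.93.

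Nuclear depth was already falling before nt 247 and then fell most steeply, while cytosolic depth changed less. At nt 239 depth was 484069 and 493967 reads in the nucleus against 323029 and 321935 in the cytosol. At nt 247 depth was 324859 and 331571 reads in the nucleus against 278551 and 275920 in the cytosol. One nucleotide later, at nt 248, it was 220371 and 218579 in the nucleus against 258539 and 253872 in the cytosol. At nt 258 it was 107291 and 92788 in the nucleus against 248114 and 242317 in the cytosol, a log2 difference of -1.28 and the lowest of the domain. The largest nuclear excess of the domain, at nt 198, and its largest deficit, at nt 258, thus lay close to each other.

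Measured as a step, the change was steepest at nt 249. The mean log2 depth of the 10 nt from there, against the 10 nt before, changed by -1.64 and -1.83 in the nuclear libraries, against -0.23 and -0.25 in the cytosolic libraries. The difference between the fractions was -1.49. Over the 6416 positions of 18S and 28S with a depth of at least 1000 in every library, 5 steps in 28S, counted at least 20 nt apart, were more negative, from -1.52 to -2.88. None of the positions in the rest of 18S that met this limit had a step as negative. This is a description with no test. The second most negative step of the domain by the same measure was only -0.17, at nt 45.

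**Figure D3:**
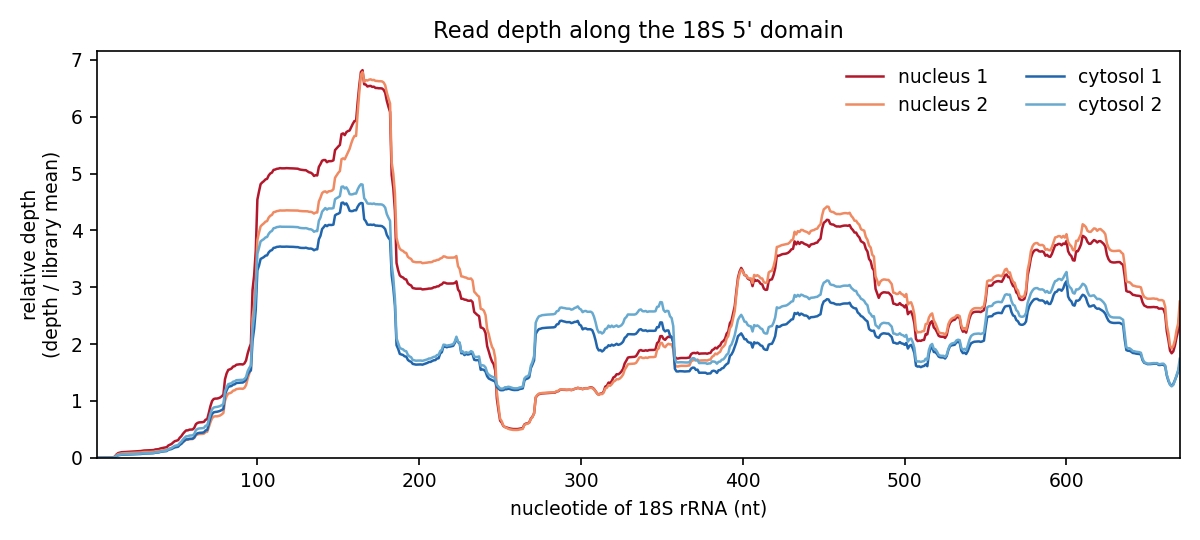
Relative depth (depth over the library mean) at each nucleotide of the domain for the 2 nuclear and 2 cytosolic libraries. All 4 curves drop at nt 185. The nuclear curves drop again at nt 248 to 258 and stay below the cytosolic curves up to nt 355.

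The part of ES3S after this step was recovered less in the nuclear libraries. From nt 248 to nt 355, a run of 108 nt, both nuclear libraries were below both cytosolic libraries at every position. Mean relative depth of the run was 1.27 and 1.23 in the nucleus against 2.01 and 2.25 in the cytosol, 1.70-fold lower in the nucleus. This was the only such run in the domain. The nucleus was above the cytosol without overlap at 497 of the 670 positions (74.2%) and below at 108 (16.1%), against 44.0% and 32.2% of all listed positions. These position counts were made only with the library mean as scaling. Scaling to the rest of 18S, which moved the difference by -0.41 on the log2 scale, was not applied to them.

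The window at nt 251 to 300 had the largest fall. Its relative depth was 0.918 and 0.917 in the nuclear libraries, against 1.90 and 2.05 in the cytosolic libraries. The nuclear pair was almost equal and lay well under the cytosolic pair. The log2 difference was -1.10 (SE 0.07, 95% interval -1.29 to -0.91, adjusted p = 8.4e-04 in limma), 2.15-fold lower, which ranked 5 from the most negative of the 264 tested windows. At nt 301 to 350 relative depth was 1.57 and 1.49 in the nucleus against 2.14 and 2.47 in the cytosol. The log2 difference was -0.58 (SE 0.09, 95% interval -0.85 to -0.32, adjusted p = 0.0121 in limma), 1.504-fold lower. Both falls stayed past the threshold under the 16 alternatives that kept windows of 50 nt, with differences from -1.50 to -0.91 and from -0.99 to -0.39. In the 4 of these that leave out a library, the lone library of a fraction is assumed to vary like the pair of the other fraction.

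How the ES3S stretch is divided decided whether a fall was seen. In windows of 25 nt the 4 windows from nt 251 to 350 were all lower, by 1.17, 1.05, 0.80 and 0.40 on the log2 scale in this order, so the deficit shrank along the stretch. In windows of 100 nt that start at nt 1 there were 0 falls (0 also at an unadjusted limma p under 0.05). The window at nt 201 to 300 had a log2 difference of -0.0029, and it joins the largest rise and the largest fall. The window at nt 301 to 400 had -0.21 (adjusted p = 0.117 in limma).

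Taken by its textbook place as nt 201 to 350, ES3S as a whole had less depth relative to the rest of the domain in the nucleus. Not all of it fell: nt 201 to 250, the largest rise of the domain (log2 difference 0.68), is part of this stretch. The log2 ratio was -0.80 and -0.71 in the nuclear libraries, against -0.15 and -0.14 in the cytosolic libraries, with means of -0.76 ± 0.07 and -0.15 ± 0.01 (SD, n = 2 each). The difference of -0.61 was larger than either spread, with no overlap (two-sided exact permutation p = 0.333). Its size depended on the place and the summary: it was -0.24 for nt 151 to 350, -0.35 for nt 201 to 300 and -1.04 by medians over positions, and no structure annotation was used to set the limits. For nt 251 to 350 alone, a choice made after the values were seen, the ratio was -1.23 and -1.29 in the nucleus against -0.05 and 0.00 in the cytosol, and the difference was -1.24. In the cytosol this part was thus covered as deeply as the rest of the domain. These ratios lie within a library and do not change with the scaling between libraries.

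The fall ended gradually, with the fractions overlapping at nt 356 to 370. The steepest upward step of the nucleus against the cytosol was at nt 356, where cytosolic depth dropped more than nuclear depth. The log2 steps were -0.19 and -0.22 in the nucleus against -0.48 and -0.53 in the cytosol. At nt 351 to 400 relative depth was 2.09 and 1.98 in the nucleus against 1.71 and 1.92 in the cytosol, with a log2 difference of 0.16 (SE 0.08) that did not pass the test (adjusted p = 0.161 in limma).

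**Figure D4:**
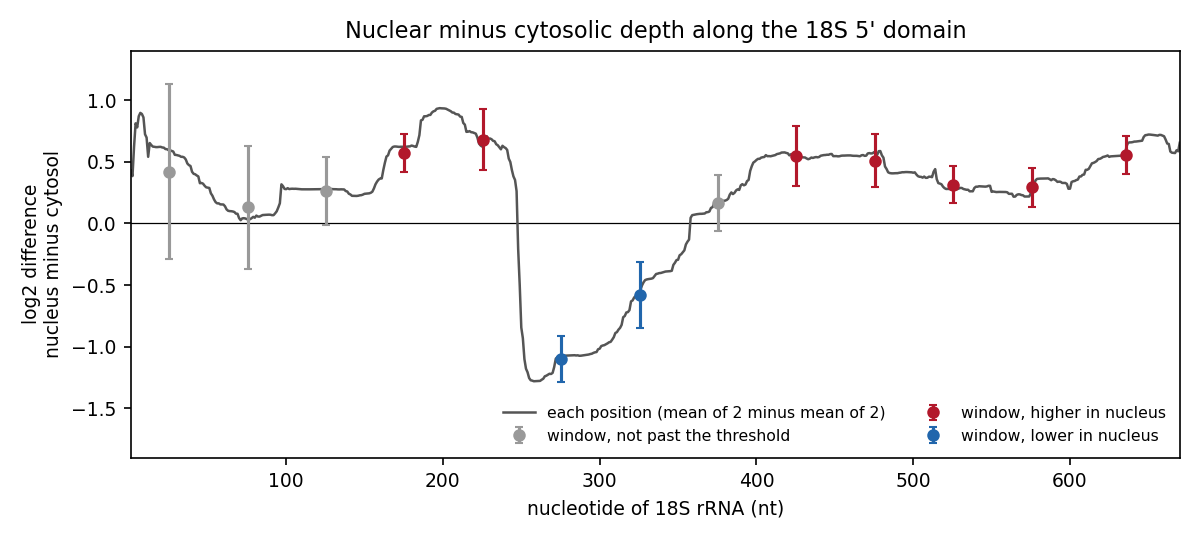
Log2 difference of nuclear minus cytosolic relative depth at each nucleotide (line, mean of 2 libraries minus mean of 2) and for each window (points with 95% intervals of the limma fit). The line turns negative at nt 248, reaches -1.28 at nt 258 and is positive again after nt 357; the 2 blue windows are the falls and the 7 red ones the rises.

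From nt 371 to the end of the domain, all 300 positions were higher in both nuclear libraries than in both cytosolic ones. Of all listed positions 44.0% lay on that side, and neighbouring positions share reads, so these are not 300 separate observations. Mean relative depth of this run was 3.06 and 3.18 in the nucleus against 2.21 and 2.38 in the cytosol, 1.36-fold higher. Its 5 whole windows, nt 401 to 670, all rose, with log2 differences from 0.29 to 0.55 and adjusted p-values from limma of 0.00341 to 0.0167. The smallest was at nt 551 to 600 and the next at nt 501 to 550 (0.32). Scaled to the rest of 18S, none of the 5 passed, and nt 551 to 600 turned to -0.11 and nt 501 to 550 to -0.0891.

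The window of the helix 18 loop, nt 601 to 670, was among the 3 largest rises. Relative depth was 3.11 and 3.28 in the nuclear libraries, against 2.13 and 2.22 in the cytosolic libraries. The log2 difference was 0.55 (SE 0.05, adjusted p = 0.00341 in limma), 1.47-fold. Within it the excess grew along the sequence, from 0.45 at nt 601 to 625 to 0.61 at nt 626 to 650 and 0.67 at nt 651 to 670. Against the rest of the domain the window stood at a log2 ratio of 0.25 and 0.33 in the nucleus against 0.04 and -0.02 in the cytosol, a difference of 0.28 with no overlap (two-sided exact permutation p = 0.333). The rest of the domain includes the ES3S fall, which enters this ratio. Scaled to the rest of 18S, the window's difference was 0.15 (adjusted p = 0.0921 in limma).

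As a whole, the domain held more of the nuclear depth but did not pass the test. It had 11.21% and 11.24% of the depth in the nuclear libraries and 8.72% and 9.46% in the cytosolic libraries. The mean was 11.2% ± 0.0190 in the nucleus and 9.09% ± 0.523 in the cytosol (SD, n = 2 each). The fold was 1.24 (95% interval 0.986 to 1.55), with an adjusted p of 0.0731 in limma over 11 regions, of which 54.5% passed in either direction. With scaling to 28S the log2 difference of 0.31 became 0.50 and passed (adjusted p = 0.0205 in limma), and with scaling to the rest of 18S it turned to -0.10 (adjusted p = 0.499). The rest of 18S, 1199 nt, was 1.33-fold higher (95% interval 1.05 to 1.67, adjusted p = 0.0499).

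Within 18S the domain held slightly less of the depth in the nucleus. It had 33.3% and 32.5% of 18S depth in the nuclear libraries and 34.5% and 34.4% in the cytosolic libraries, while it makes up 35.8% of the length. The log2 ratio of the domain over the rest of 18S was -0.19 ± 0.03 in the nucleus and -0.09 ± 0.01 in the cytosol (SD, n = 2 each). The difference of -0.10 exceeded both spreads, with no overlap (two-sided exact permutation p = 0.333). The medians over positions gave -0.07 with overlap between the fractions. Of the 24 windows of the rest of 18S, 15 were higher in the nucleus and 1 lower, with a median difference of 0.48, against 0.32 in the domain. Relative depth in the lower one (nt 101 to 150 of that part, 50% G+C) was 1.16 and 1.16 in the nuclear libraries, against 2.19 and 2.27 in the cytosolic libraries. Its log2 difference was -0.93 (adjusted p = 6.9e-04 in limma), between those of the 2 falls of the domain.

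The 2 falling windows were the most G+C-rich of the domain, at 78% and 72%, while the other 11 windows had 38% to 60%. The longest run of G and C, 32 nt at nt 253 to 284, lay wholly inside the first of them, and the next longest in the domain had 10 nt. Nuclear depth was falling ahead of that run and went on falling over its first nucleotides. A read counts at every base it covers, so these depths do not say where the fall arose. Across the 13 windows the Pearson correlation of G+C content with the log2 difference was -0.68, and the Spearman correlation, by ranks, was -0.15. Without the 2 falling windows the Pearson correlation was 0.36 over 11. It was 0.16 over the 24 windows of the rest of 18S and -0.13 over the 101 of 28S. Neighbouring windows share reads, so this is a description. Elsewhere in 18S and 28S, 16 tested windows had 72% to 78% G+C, a range chosen after the values were seen. Of these 0 rose and 6 fell (all 6 of the 14 in 28S, by limma), with differences from -0.82 to 0.37, so none was as low as nt 251 to 300. The 2 in the rest of 18S had 0.12 and 0.26 and did not pass. Over all G+C contents, 5 of the 101 tested windows of 28S rose and 40 fell, a share of falls like that of the 14. When a quadratic in G+C, fitted over windows of 18S, 5.8S and 28S, was removed, the falls were -0.997 and -0.56 and stayed past the threshold (adjusted p = 7.6e-04 and 0.00994 in limma). That fit used the G+C content of whole windows, 101 of them in 28S, so it cannot speak to a run within a window. The part of G+C content in the difference was not tested.

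**Figure D5:**
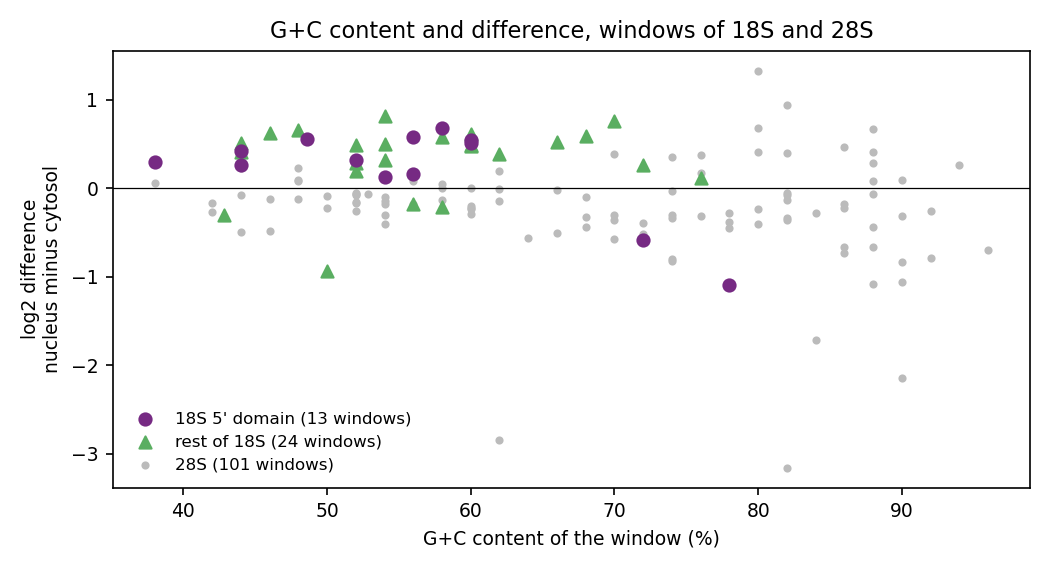
Log2 difference of nuclear minus cytosolic relative depth against G+C content (%) for each tested window of the domain (13), the rest of 18S (24) and 28S (101). The domain's windows at 72% and 78% G+C lie at -0.58 and -1.10, below its other 11 windows, which lie above 0.

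The libraries of a fraction followed each other far more closely than those of different fractions did. Over the 620 positions after nt 50, the log2 ratio of the 2 cytosolic libraries had an SD of 0.06 and that of the 2 nuclear libraries 0.18. The 4 pairs of a nuclear with a cytosolic library had SDs of 0.51 to 0.57. The nuclear pair differed most in the first part of the domain, where nucleus 1 was up to 0.61 higher on the log2 scale. It lay at most 0.22 below nucleus 2. The nuclear profile was also the more uneven, with a coefficient of variation over positions of 0.581 and 0.579 in the nucleus against 0.483 and 0.487 in the cytosol.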

How the data were processed

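Per the file headers, the deposited values are read depth (coverage, a signal) at each position of 4 rRNA reference sequences, one column per library. They are whole numbers, not scaled between libraries. The submitters' processing notes name Bowtie2 2.2.6, SAMtools and cutadapt 1.5; settings, read filters and strand handling were not given in these sources. Depth cannot separate copies of rDNA.

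From these values, relative depth, windows of 50 nt tiled from the start of each region (a last piece under 25 nt was joined) and log2 differences were computed. Windows whose mean depth reached 10 in 2 or more libraries were tested with limma 3.58.1 in R 4.3.3 (lmFit, eBayes with a variance trend, pseudocount 0.01), two-sided; the 11 regions were tested without trend or pseudocount. Ratios within libraries had exact permutation tests (SciPy 1.17.1).

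All 13 windows are described: in full the first, deepest, shallowest and helix 18 windows, the 3 largest rises and the largest falls; of steps, the 2 largest each way between fractions and the largest each way in the mean of all libraries, at least 20 nt from one already taken. The members, windows and lists were chosen with earlier results of these data known. Positions, runs and the G+C comparison named beyond this were chosen after their values were seen. Alternatives were other scalings, pseudocounts, filters, window sizes, medians, a G+C correction, a replicate block and leaving out each library.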

Additional observations from a re-analysis of the deposited data

How the results depend on the processing

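The fall at nt 251 to 300 and that at nt 301 to 350 kept their direction and their call under the 16 alternatives with windows of 50 nt; the second was at the threshold with scaling to 28S (adjusted p = 0.04999 in limma). The count of 7 rises was 4 with the median of ratios and 0 with scaling to the rest of 18S (2 at an unadjusted limma p under 0.05). It was 16 of 27 windows of 25 nt and 4 of 7 windows of 100 nt, and the falls were 4 and 0 (0 at an unadjusted p under 0.05). Leaving out a library gave 5 to 8 rises and 2 falls; these fits set 1 library against 2 and assume that the lone library varies like the pair of the other fraction. For the domain as a region the log2 difference of 0.31 was 0.50 with scaling to 28S and passed (adjusted p = 0.0205), and turned to -0.10 with scaling to the rest of 18S (adjusted p = 0.499). Scaling to the rest of 18S also turned 5 windows, by their first nt 51 (-0.27), 101 (-0.14), 351 (-0.24), 501 (-0.0891) and 551 (-0.11), and the median of ratios turned those starting at 51 (-0.0840) and 351 (-0.0509), with none past the threshold. The window at nt 51 to 100 was also at -0.0025 with the G+C quadratic removed, with or without the replicate block, and ranged from -0.0796 (without nucleus replicate 1) to 0.34 (without nucleus replicate 2) when a library was left out. Over all tested windows the counts of 97 higher and 45 lower were 111 and 25 with scaling to 28S, 68 and 80 with scaling to the rest of 18S, 73 and 24 without cytosolic replicate 1 and 84 and 28 without cytosolic replicate 2.

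The replicate block, in which libraries of the same number are paired, gave 7 rises and 2 falls in the domain and a region difference of 0.31 (adjusted p = 0.136); with the G+C quadratic as well there were 5 rises and 2 falls. Deviations of same-numbered libraries from their group means correlated at 0.14 over all 264 tested windows and at -0.24 over the 13 of the domain, with only 2 pairs, and the labels do not say that a number marks a shared batch. ES3S over the rest of the domain was -1.04 by medians, -0.24 with windows 4 to 7 and -0.35 with windows 5 and 6, each in the same direction. With 20 nt on each side of the 5' end the log2 difference was 0.35, with overlap. A minimum depth of 1000 gave 9 rises. Depth limits the first window and the spacer side of the 5' end most.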
